A study of Mus musculus with 12 samples.

Results

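Tigit and 7 other receptor genes that T cells use to restrain or set their activation, namely Cd96, Cd226, Lag3, Btla, Cd200, Cd160 and Cd5, were followed through regulatory T cells (Tregs) and transduced T cells carrying 3 forms of Foxp3. They were chosen by name, with earlier results of these data known, as 8 of the 16426 genes with a probe set of their own. Each was read by 1 probe set. All 8 were among the 8918 genes tested. RNA was measured on 12 Affymetrix Mouse Gene ST 1.0 arrays, 2 in each of 6 groups. The 3 Treg groups were CD4+ CD25-high cells sorted from the spleens of mice whose Foxp3 was wild type (WT/WT), M354/M354 or M176/M176. The other 3 groups were conventional CD4+ T cells (Tcons) of WT mice that a retrovirus had given WT, M354 or M176 Foxp3, sorted as CD4+ Thy1.1-high cells. The labels give all mice as male C57BL/6 aged 6 weeks. What M354 and M176 change in the protein is not given here. No group received a virus without Foxp3, and transduced cells carry Foxp3 from a vector and not from its own locus. Whether replicate arrays stand for different mice or cultures is not stated in the labels, so p-values measure only how far these samples spread, and that spread may be technical.

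TIGIT, CD96 and CD226 are related surface receptors that bind the same family of adhesion molecules, the nectins and the poliovirus receptor PVR. CD226 delivers an activating signal, TIGIT competes with it for PVR and delivers an inhibitory one, and CD96 is the third member of the axis. LAG-3 binds MHC class II, BTLA and CD160 share the ligand HVEM (Tnfrsf14), CD200 is itself a ligand that engages CD200R on other cells, and CD5 dampens signals from the T cell receptor. In Tregs, Foxp3 is a forkhead transcription factor that holds the lineage's expression programme, and TIGIT marks Tregs with an activated phenotype.

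Tigit, Btla, Cd200 and Cd96 lie in that order along mouse chromosome 16, Lag3 on chromosome 6, Cd160 on 3, Cd5 on 19 and Cd226 on 18. The 250 bases upstream of the start of each promoter entry were taken from RefSeq's promoters on GRCm38.p6, in which 6 of the 8 genes were matched and used. Such a start need not be the 5′ end of the gene. By the positions in RefSeq's gene table, taken as the same build, the Tigit and Btla windows lie inside the gene's span. The Cd96 window lies just upstream of its gene. The sequences of the 4 genes of chromosome 16 are shown because they are neighbours of which Tigit changed most between the alleles. Each is printed 5′ to 3′ on the strand of its gene, and capitals mark matches to the forkhead core TGTTTNC on either strand.
Tigit, chr16:43664185-43664434, minus strand: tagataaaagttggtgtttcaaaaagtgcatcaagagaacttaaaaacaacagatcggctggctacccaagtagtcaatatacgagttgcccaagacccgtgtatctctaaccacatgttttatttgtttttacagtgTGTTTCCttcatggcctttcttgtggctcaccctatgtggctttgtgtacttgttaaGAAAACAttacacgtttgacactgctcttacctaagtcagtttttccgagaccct
Btla, chr16:45224087-45224336, plus strand: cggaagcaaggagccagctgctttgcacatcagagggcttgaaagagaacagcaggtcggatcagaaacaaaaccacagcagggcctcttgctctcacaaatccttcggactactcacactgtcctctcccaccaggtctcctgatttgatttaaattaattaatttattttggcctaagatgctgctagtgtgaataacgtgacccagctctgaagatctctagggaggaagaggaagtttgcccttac
Cd200, chr16:45409054-45409303, minus strand: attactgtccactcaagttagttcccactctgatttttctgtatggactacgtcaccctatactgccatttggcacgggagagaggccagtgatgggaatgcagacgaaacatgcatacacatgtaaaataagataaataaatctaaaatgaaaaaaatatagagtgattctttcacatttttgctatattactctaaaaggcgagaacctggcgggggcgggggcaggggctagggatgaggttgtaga
Cd96, chr16:46120249-46120498, minus strand: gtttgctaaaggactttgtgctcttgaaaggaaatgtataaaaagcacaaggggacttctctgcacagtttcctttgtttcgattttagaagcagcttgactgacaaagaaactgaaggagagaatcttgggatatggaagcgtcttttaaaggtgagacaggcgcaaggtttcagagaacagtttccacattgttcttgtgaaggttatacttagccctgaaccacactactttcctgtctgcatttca

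The Tigit window held 2 forkhead matches. TGTTTCC lay from 112 to 106 bases upstream of the promoter entry's start, which is inside the gene's span. GAAAACA, which is the core read on the opposite strand, lay from 55 to 49 bases upstream of it. None of the other 6 windows searched, which include 2 starts of Cd160 and 1 of Cd5, held this core. It was present in 17.8% of 32851 promoter windows of the same length. The Runx core TGTGGT was found in the windows of Tigit, Cd96 and Btla and in both of Cd160, against 14.05% of all windows. The AP-1 site TGANTCA (6.75% of windows) and the Maf half-site TGCTGAC (3.81%) were found in no window of these genes. All motifs were searched on both strands, and a match is a description of the letters and not of a bound site.

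Some features of the arrays bear on every comparison and are given here once. The markers of T cells (8 of 12 measured) and of Tregs (9 of 11 measured) were above the median of the array in all Treg samples, and in transduced samples the one exception was Itgb8. Foxp3 lay between 5233 and 6163 on 10 arrays and at 3442 and 3321 on the arrays of M176 Tregs. The M176 Treg arrays also had a higher mean log2 level of 36 small nucleolar RNA (snoRNA) genes, 9.98 and 10.04, than the other Treg arrays, which lay between 8.66 and 8.87. Transduced arrays lay between 8.61 and 9.64. Among Tregs the snoRNA level thus nearly coincides with the M176 allele, and the 2 cannot be told apart. With this level as a covariate, calls over all genes fell from 2747 to 570 in M354 against M176 Tregs. In M176 against WT Tregs they fell from 2206 to 364. The second WT Treg array had summed B cell markers (12 of 15 measured) of 4643, against 1941 to 2414 on the other 5 Treg arrays. The summed CD8+ T and NK cell markers (11 of 12 measured) were 3426 and 2959 on the M354 Treg arrays, 2194 and 2045 on the WT and 2096 and 1766 on the M176 Treg arrays; 9 of the 11, Cd8a among them, were below the median of the array on both M354 arrays, where Nkg7 (2466 and 2031, against 764 to 1184 on the other Treg arrays) and Cd8b1 (455 and 467, against 482 to 693) were not. The summed dendritic cell markers (8 of 9 measured) were 3163 and 3506 on the M176 Treg arrays and 2427 to 2578 on the other Treg arrays, and Cst3 held most of it (2764 and 3109 on the former, 1908 to 2086 on the latter), with Itgax, Flt3, Xcr1, Clec9a, Siglech and Cd209a below the median on all 12 arrays. Among Tregs the CD8+ T and NK cell sum was thus highest with M354, as were Tigit, Cd226, Lag3 and Cd200, and the part of other cells in those values was not tested. Fewer cells of a type and less RNA per cell cannot be told apart in bulk samples.

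**Figure D1:**
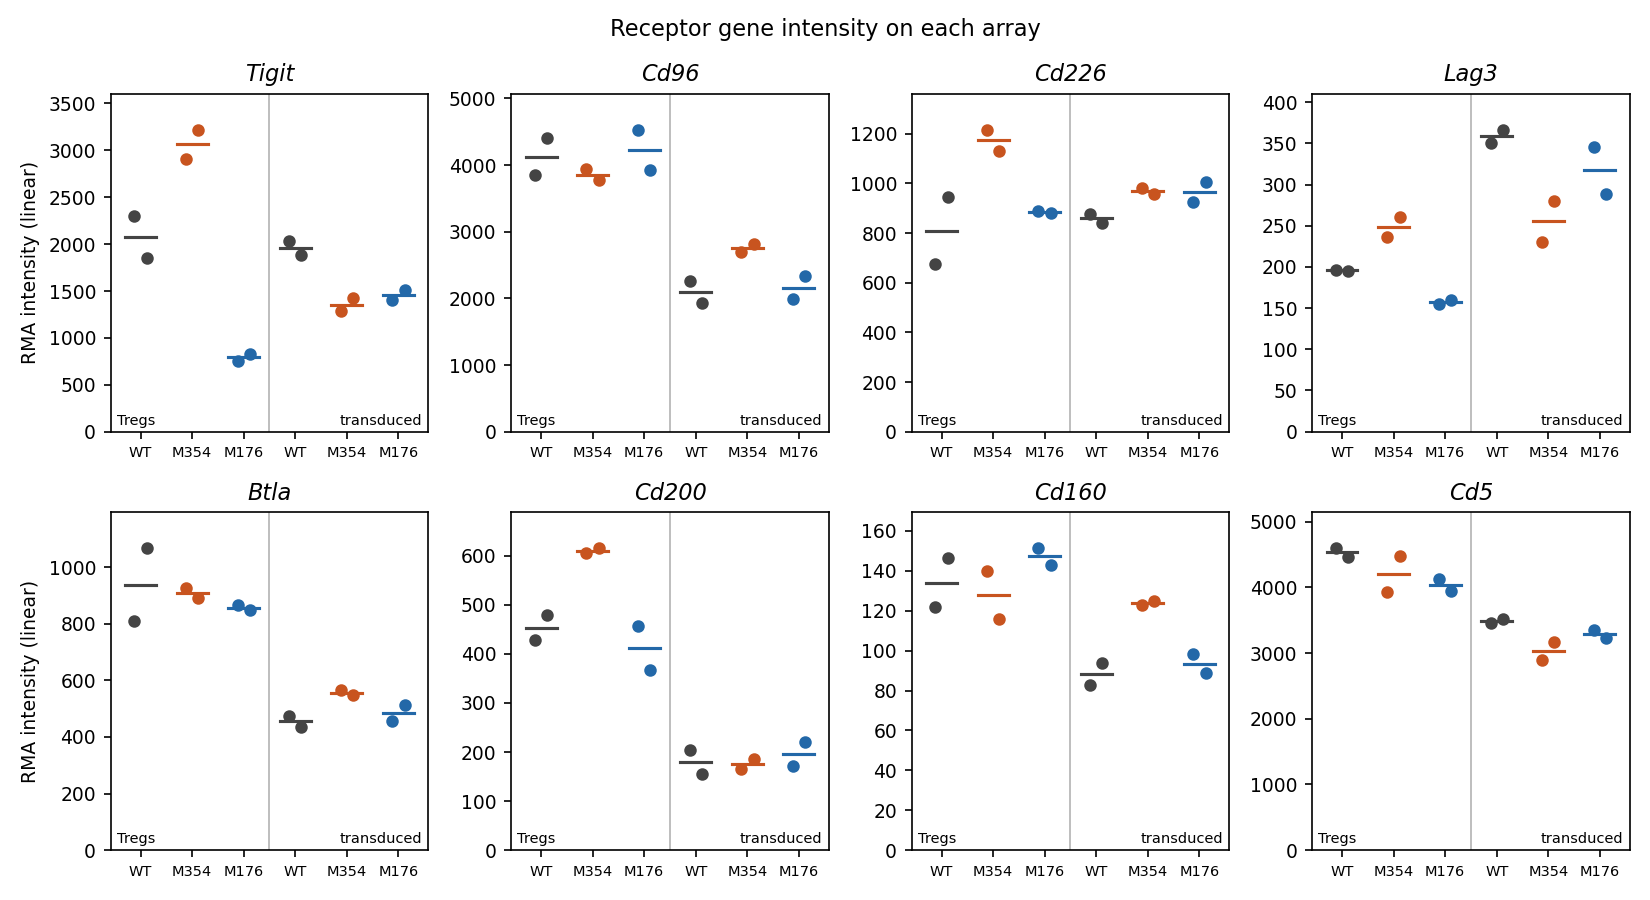
Intensity (linear, after RMA summarisation) of the 8 receptor genes on each of the 12 arrays, with points for arrays and a line for the mean of each group of 2; each panel has its own axis from 0. Tigit spans 756 to 3220 and has its highest and its lowest arrays both among Tregs, while Cd96, Btla, Cd200 and Cd5 are higher on every Treg array than on every transduced array.

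Levels are intensities on the linear RMA scale, and differences are log2 changes from limma fitted over all genes, with the standard error (SE) and the Benjamini-Hochberg adjusted p. A gene is called where that p is under 0.05. The comparisons of each mutant with WT within a system share the same WT arrays.

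Tigit was the receptor gene that followed the Foxp3 allele most. In WT Tregs its intensities were 2305 and 1857, in M354 Tregs 2906 and 3220, and in M176 Tregs 756 and 830.3. The 3 groups did not overlap, with M354 Tregs at 3063 ± 222 (SD, n = 2), WT Tregs at 2081 ± 317 (SD, n = 2) and M176 Tregs at 793 ± 52.6 (SD, n = 2). Tigit was thus 2.61-fold lower in M176 than in WT Tregs, a log2 change of -1.38 (SE 0.14, limma adjusted p = 4.58e-06). It was 1.48-fold higher in M354 than in WT Tregs, a log2 change of 0.56 (SE 0.14, limma adjusted p = 0.0447). Between the mutants the gap was 3.86-fold, a log2 change of 1.95 (SE 0.14, limma adjusted p = 5.93e-08). The fall in M176 Tregs and the gap between the mutants passed under all 22 alternatives run, with log2 changes from -1.54 to -1.23 and from 1.83 to 2.07. With the snoRNA level as a covariate the log2 change of Tigit in M176 Tregs was -1.27 (limma adjusted p = 0.00767). The rise in M354 Tregs passed under 10 of the 22. It was lost with no filter (0.0509), with the Treg arrays alone (0.0522), with the replicate block (0.0721), and without either array of M176 Tregs (0.0660), M354-transduced cells (0.0571) or M176-transduced cells (0.0564). Without the second WT Treg array, the one with more B cell marker signal, its log2 change was 0.41 and the limma adjusted p = 0.426; without the first or the second M354 Treg array the adjusted p was 0.113 and 0.195. The part of B cell RNA in this comparison was not tested.

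In transduced cells the order of the Tigit levels was another. The intensities were 2038 and 1884 with WT Foxp3, 1287 and 1423 with M354, and 1402 and 1508 with M176. Both mutants lay below WT on every array and overlapped each other. The log2 change was -0.53 (SE 0.14, limma adjusted p = 0.0727) with M354 and -0.43 (SE 0.14, limma adjusted p = 0.399) with M176, so neither passed. The first of these passed under 4 of the alternatives, namely quantile normalization (limma adjusted p = 0.0432), cyclic loess (0.0313), an offset of 50 (0.0432) and a trended, robust prior (0.0433). Over all 6 groups the order was M354 Tregs, WT Tregs, WT-transduced, M176-transduced, M354-transduced and M176 Tregs, in which WT Tregs overlapped WT-transduced cells and the transduced mutants overlapped each other.

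The effect of each allele on Tigit differed between the systems. The M354 effect was 1.10 higher on the log2 scale in Tregs than in transduced cells (SE 0.19, limma adjusted p = 0.00681), and this passed under all 21 alternatives run for it. The M176 effect was lower in Tregs by a log2 difference of -0.95 (SE 0.19, limma adjusted p = 0.00852). That difference did not pass with the snoRNA covariate (limma adjusted p = 0.0807) or without the first M176 Treg array (0.0604). Of all genes, 1.08% had a called difference in the M354 effect and 5.49% in the M176 effect.

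The activating partner Cd226 had intensities of 676 and 944 in WT Tregs, 1216 and 1131 in M354 Tregs, and 890.4 and 882 in M176 Tregs. M354 Tregs were above both other groups, and the WT arrays spanned the M176 ones. Cd226 was higher in M354 than in M176 Tregs by a log2 change of 0.40 (SE 0.15, limma adjusted p = 0.0451), and against WT the log2 change was 0.55 (SE 0.15, limma adjusted p = 0.0635). The first value passed under 10 of 22 alternatives and was lost with no filter (0.0524), the Treg arrays alone (0.0558), the replicate block (0.0567) and without either array of M354-transduced (0.0545) or M176-transduced cells (0.0522). Its log2 change with the snoRNA covariate was 0.51 (limma adjusted p = 0.238), and leaving out any 1 of the M354 or M176 Treg arrays gave an adjusted p from 0.0704 to 0.214. The second value is larger without the second WT Treg array, with a log2 change of 0.80 (limma adjusted p = 0.0135). In transduced cells Cd226 ranged only from 842 to 1007, and the log2 changes were 0.17 with M354 and 0.17 with M176, neither called.

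Cd96, the other receptor of the nectin axis, stayed high in every Treg group. Its intensities were 3855 and 4401 in WT, 3938 and 3773 in M354, and 4530.2 and 3927 in M176 Tregs, and the 3 groups overlapped. The 95% interval of the log2 change was -0.39 to 0.20 for M354 against WT and -0.26 to 0.33 for M176 against WT, so a change of the size seen for Tigit lies outside both. With M354 in transduced cells Cd96 was 2701 and 2811, above the WT-transduced arrays at 2265 and 1932, for a log2 change of 0.40 (SE 0.14, limma adjusted p = 0.227) that did not pass.

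Lag3 was dimmer than Tigit but was ordered in the same way among Tregs. It read 197 and 195 in WT, 236 and 261 in M354, and 155 and 160.0 in M176 Tregs, with no overlap between the groups. The mutants differed 1.58-fold, a log2 change of 0.66 (SE 0.14, limma adjusted p = 0.00184). Against WT the log2 change was 0.34 (SE 0.14, limma adjusted p = 0.305) in M354 and -0.31 (SE 0.14, limma adjusted p = 0.104) in M176 Tregs, and neither passed. The gap between the mutants passed under 20 of 21 alternatives; with the snoRNA covariate its log2 change was 0.35 and the limma adjusted p = 0.344.

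In transduced cells Lag3 was brighter, at 350.4 and 367 with WT Foxp3, 346 and 288 with M176, and 230.0 and 280.5 with M354. The M354 arrays were the lowest, yet the log2 change of -0.50 against WT (SE 0.14, limma adjusted p = 0.101) did not pass. The M354 effect on Lag3 was 0.84 higher in Tregs than in transduced cells (SE 0.19, limma adjusted p = 0.0452). This difference passed under 8 of 20 alternatives and was lost with the replicate block (0.0711), with the snoRNA covariate (0.0791) and without either M354 Treg array (0.0857 and 0.122), either M176 Treg array (0.0756), either WT Treg array (0.111 and 0.151), the first M354-transduced array (0.282) or either WT-transduced array (0.0752 and 0.130).

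Cd200, the ligand of the set, read 428 and 479 in WT, 605 and 615 in M354, and 457 and 366 in M176 Tregs. Only M354 Tregs stood clear of the other 2 groups. The log2 change was 0.58 against M176 Tregs (SE 0.16, limma adjusted p = 0.0134) and 0.43 against WT Tregs (SE 0.16, limma adjusted p = 0.266), which did not pass. The called value was lost with the snoRNA covariate (0.362), without the first or second M354 Treg array (0.0696 and 0.0536) and without the second M176 Treg array (0.145). In transduced cells Cd200 lay between 155 and 220.3 and all 3 groups overlapped.

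Neither receptor for HVEM was called between alleles. Btla read 809 and 1067 in WT, 928 and 892 in M354, and 866 and 849 in M176 Tregs, and 436 to 566 in transduced cells. Cd160 was the dimmest of the 8, between 82.8 and 151, and lay above the median of its array on 8 of 12 arrays. With M354 in transduced cells Cd160 read 123 and 125, against 82.8 and 93.9 with WT Foxp3, for a log2 change of 0.49 (SE 0.14, limma adjusted p = 0.118). This difference did not pass, although the groups did not overlap.

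Cd5 was bright on every array, between 2891 and 4594. Its log2 changes were -0.11 in M354 Tregs, -0.17 in M176 Tregs (limma adjusted p = 0.345), -0.21 with M354 and -0.09 with M176 in transduced cells, none called. Its place depended on the normalization. Under quantile normalization Cd5 was called lower in M176 than in WT Tregs, with a log2 change of -0.56 (limma adjusted p = 0.0033), and higher in M354 than in M176 Tregs, with a log2 change of 0.49 (limma adjusted p = 0.0056).

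**Figure D2:**
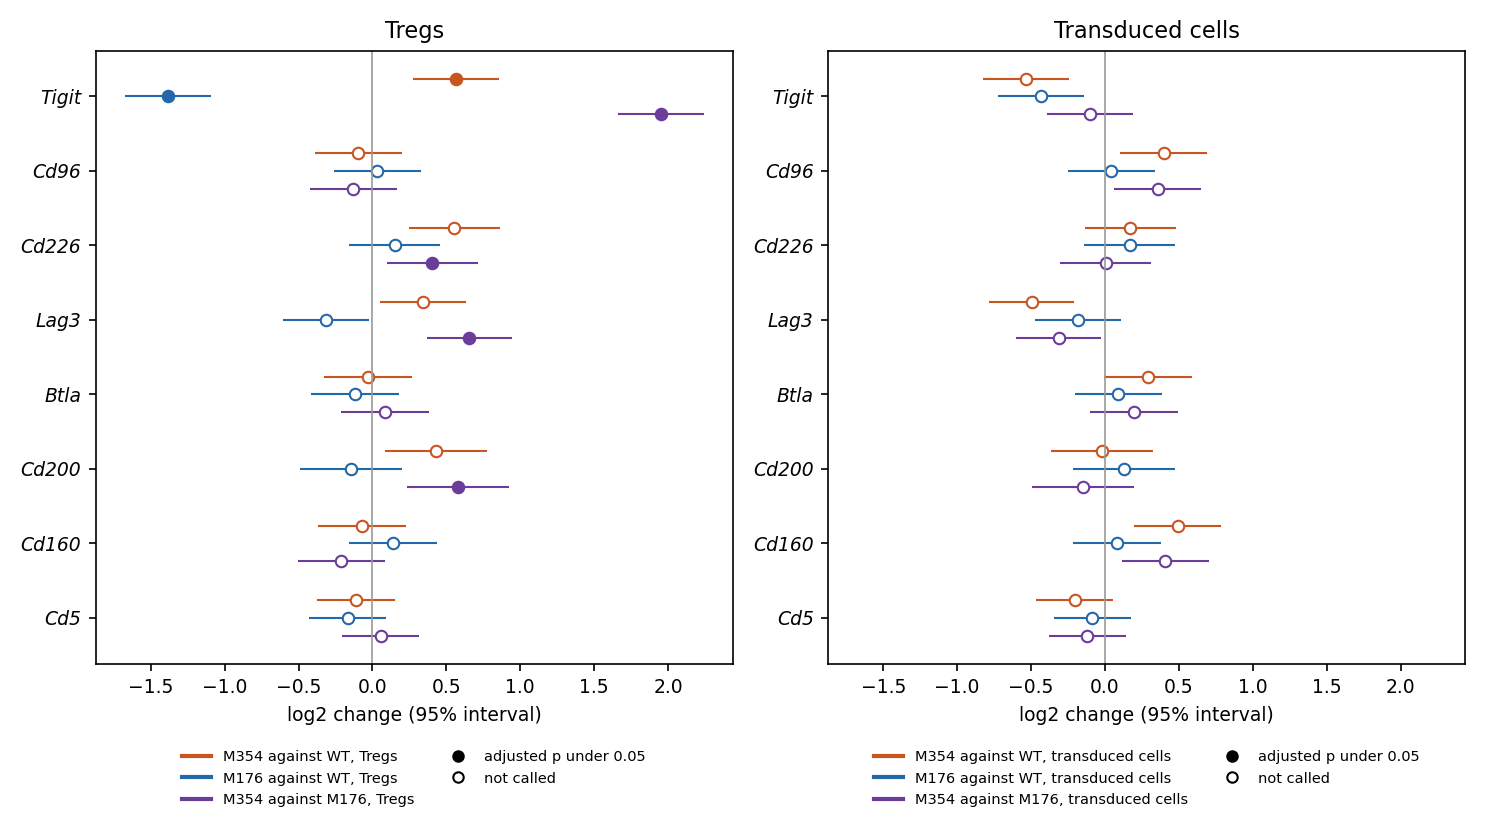
Log2 change of each receptor gene between Foxp3 alleles in Tregs (left) and in transduced cells (right), with its 95% interval from limma; filled points are called at an adjusted p under 0.05. 6 filled points lie in the Treg panel, 3 of them Tigit's (0.56, -1.38 and 1.95), and none lies in the transduced panel.

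As a set, 1 of the 8 receptor genes was called in M354 against WT Tregs, where 1.81% of all tested genes were, and 1 of 8 in M176 against WT Tregs, where 24.7% were. Between M354 and M176 Tregs 4 of 8 were called, all higher in M354, where 30.8% of all genes were called and 12.7% in that direction. The median log2 change of the 8 was 0.24 there, beside -0.02 over all genes. Since the 8 were chosen with earlier results of these data known, these shares and medians are descriptions and not a test of the set. In transduced cells 0 of 8 were called with M354 (1.33% of all genes), 0 with M176 (0.516%) and 0 between the mutants (0.0785%). Arrays did not overlap between the groups for 4, 3 and 6 of the 8 in the 3 Treg comparisons, where 37.7%, 67.6% and 69.4% of all genes did not, and for 7, 4 and 5 of the 8 in the 3 transduced ones, where 37.3%, 29.4% and 33.2% did not.

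WT Tregs and WT-transduced cells, which both carry normal Foxp3, differed in 6 of the 8 genes, where 30.2% of all genes were called. The arrays of the groups did not overlap for the same number of genes, 6 of 8, against 64.3% of all genes. Cd200 was 2.54-fold higher in Tregs, a log2 change of 1.35 (SE 0.16, limma adjusted p = 7.89e-06). Btla was 2.04-fold higher (log2 change 1.03, limma adjusted p = 2.88e-05), and Cd96 was 1.97-fold higher (0.98, limma adjusted p = 4.51e-05). Cd160 was higher by 0.60 on the log2 scale (limma adjusted p = 0.00401) and Cd5 by 0.38 (limma adjusted p = 0.0300). The call of Cd5 was lost without either WT Treg array (0.146 and 0.0812) or either WT-transduced array (0.122 and 0.0696), and that of Cd160 without the second WT Treg array (0.0533). Lag3 went the other way, 1.83-fold lower in Tregs, with a log2 change of -0.87 (SE 0.14, limma adjusted p = 0.000133).

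For Tigit the same comparison gave a log2 change of 0.08, with a 95% interval from -0.21 to 0.37 (limma adjusted p = 0.701), and for Cd226 of -0.11, from -0.42 to 0.20 (limma adjusted p = 0.618). Cells transduced with WT Foxp3 thus had Tigit at 1961 ± 109 (SD, n = 2) beside 2081 ± 317 (SD, n = 2) in WT Tregs. Other cells' markers moved with this contrast. The CD8+ T and NK cell list (11 of 12 measured) summed to 2045 and 2194 on the WT Treg arrays and 4546 and 5404 on the WT-transduced arrays, with Ncr1, Klrb1c, Klrk1 and Klra8 below the median of every array. B cell markers summed to 2028 and 4643 on the former and to 4616 and 4747 on the latter. Dendritic cell markers (8 of 9 measured) summed to 2427 and 2578 on the former and to 2636 and 3684 on the latter. On both WT-transduced arrays 7 of these 8, all but Cst3, were below the median, so that sum says little about dendritic cells. All 6 measured myeloid markers were below the median of every array. Lag3, Cd160 and Cd96 are also made by CD8+ T and NK cells. The part of other cells in the values of any of the 8 genes, Tigit and Cd226 included, was not tested.

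**Figure D3:**
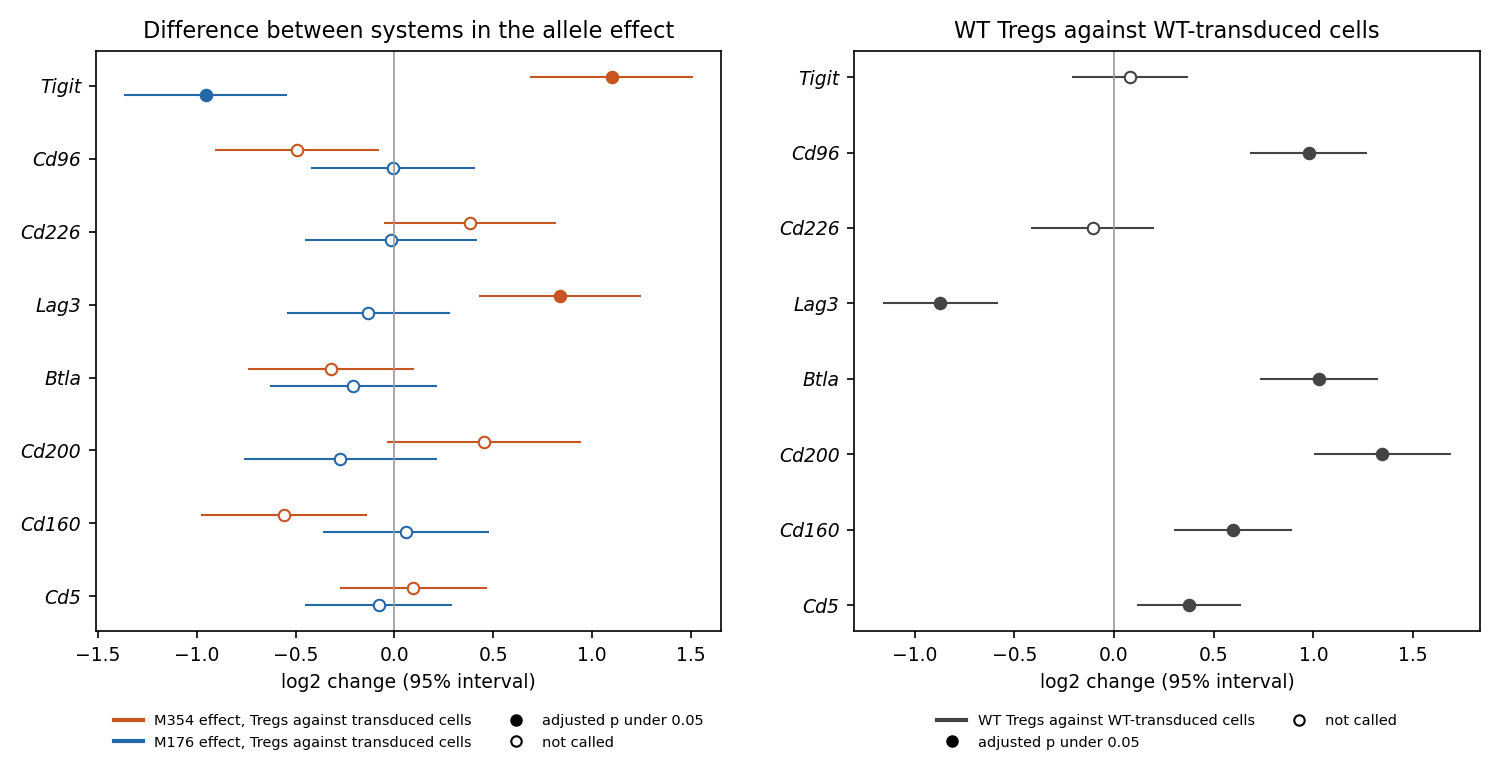
Left, difference between Tregs and transduced cells in the log2 effect of M354 (orange) and M176 (blue) Foxp3 on each receptor gene; right, log2 change of WT Tregs against WT-transduced cells, both with 95% intervals from limma and filled points at an adjusted p under 0.05. Tigit is called for both allele effects (1.10 and -0.95) and Lag3 for M354 (0.84), whereas on the right all genes but Tigit and Cd226 are called.

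Genes around these receptors were counted in lists, also chosen with earlier results of these data known, beside the share of all genes called. That share was 0.886% higher and 0.919% lower in M354 against WT Tregs, 13.4% and 11.3% in M176 against WT Tregs, 12.7% and 18.1% in M354 against M176 Tregs, 0.359% and 0.976% with M354 in transduced cells, and 0.0112% and 0.505% with M176 there. Of the partners that these receptors bind, 16 of 21 listed genes had a probe set and 8 were tested. In Tregs, 1 rose and 1 fell with M354 against WT, 0 rose and 1 fell with M176, and 3 were higher and 1 lower in M354 than in M176. Tnfsf14 (LIGHT), which binds HVEM, was higher in M354 than in WT Tregs by a log2 change of 0.78 (SE 0.16, limma adjusted p = 0.0142). It read 127 and 152 in M354 Tregs, beside array medians of 117 and 112, and 86.1 and 75.3 in WT Tregs, below the median. Only M354 arrays had Tnfsf14 above the median, so it passed the filter through them, and its values lie near background. Cd72, a binding partner proposed for CD5, was lower in M354 than in WT Tregs by a log2 change of -0.85 (SE 0.15, limma adjusted p = 0.0053). Cd200r1, the receptor for CD200, was lower in M176 than in WT Tregs by a log2 change of -0.64 (SE 0.14, limma adjusted p = 0.00437), and higher in M354 than in M176 Tregs by 0.49 (limma adjusted p = 0.0167). Lgals3, a galectin reported to bind LAG-3, was higher in M354 than in M176 Tregs by 0.34 (limma adjusted p = 0.0467). The call of Tnfsf14 against WT was lost without the second M354 (0.135) or WT Treg array (0.122), and that of Cd72 without the first M354 (0.113) or WT Treg array (0.0531). Both calls of Cd200r1 were lost with the snoRNA covariate (0.396 and 0.612), the first without the second WT Treg array (0.0526), and the second without the second M354 array (0.0970) or either M176 array (0.0640 and 0.0969). The call of Lgals3 held under 4 of 22 alternatives. With the snoRNA covariate the partners' counts were 1 higher and 2 lower in M354 against WT Tregs, 0 and 0 in M176 against WT Tregs, and 1 and 0 in M354 against M176 Tregs; without the second WT Treg array 0 rose with M354 and 0 fell with M176, and without the second M354 Treg array 0 were higher in M354 than in M176. Pvr, the shared ligand of the nectin axis, named outside the rule, read 854 and 806 in WT, 525 and 634 in M354, and 745 and 724 in M176 Tregs. Its log2 change was -0.52 in M354 against WT Tregs (SE 0.13, limma adjusted p = 0.0534), which did not pass.

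Among other inhibitory surface molecules, 12 of 23 listed genes were tested; 1 rose and 2 fell in M176 against WT Tregs, 4 were higher and 2 lower in M354 than in M176 Tregs, and 0 were called in M354 against WT Tregs. Klrg1, an inhibitory lectin-like receptor of mature effector T cells and Tregs, was lower in M176 than in WT Tregs by a log2 change of -2.26 (SE 0.18, limma adjusted p = 6.63e-07). Its M176 effect was lower in Tregs than in transduced cells by -2.36 (limma adjusted p = 8.17e-05). The mean intensity of Klrg1 was 720.7 in WT and 150.9 in M176 Tregs. In transduced cells it was 109.2 with WT Foxp3 and 116.4 with M176, close to the array medians. A fall from that level could hardly be seen, so this test cannot decide whether M176 acts differently on Klrg1 in the 2 systems. Nt5e (CD73), which makes adenosine, was higher in M354 than in M176 Tregs by 0.62 (limma adjusted p = 0.00199) and lower with M354 than with WT Foxp3 in transduced cells by -0.62 (limma adjusted p = 0.0194). Its M354 effect differed between the systems by 1.03 (limma adjusted p = 0.00713). Sit1, an adaptor that restrains T cell receptor signals, was lower in M354 than in M176 Tregs by -0.88 (limma adjusted p = 0.000199). Sit1 was also higher in M176 than in WT Tregs (limma adjusted p = 0.00746), a call lost with the snoRNA covariate (0.575). It was not called in M354 against WT Tregs. With the snoRNA covariate the adjusted p was 0.169 for Nt5e and 0.152 for Sit1 between the mutants. The fall of Nt5e in transduced cells was lost with the transduced arrays alone (0.0582) and without either M354-transduced array (0.248 and 0.0637) or the first WT-transduced array (0.118). Pecam1, an adhesion receptor with inhibitory motifs, was lower in M354 than in M176 Tregs by -0.50 (limma adjusted p = 0.00646; 0.0600 without the first M176 array), and Cd276 (B7-H3) was higher by 0.45 (limma adjusted p = 0.0302; lost without the first M354 or either M176 array, 0.0660 to 0.327). With the snoRNA covariate the counts of this list were 0 higher and 1 lower in M176 against WT Tregs and 1 higher and 0 lower in M354 against M176 Tregs, and without the second WT Treg array the first pair was 0 and 1.

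Of the costimulatory genes, 8 of 15 were tested. In Tregs 1 rose with M354, 3 fell with M176, and 4 were higher in M354 than in M176; in transduced cells 3 fell with M354 and 1 with M176. The 3 that fell with M176 became 1 with the snoRNA covariate and 5 under quantile normalization, and the 4 became 0 with the covariate, 2 without the second WT Treg array, 2 with the replicate block and 7 under quantile normalization. Tnfrsf18 (GITR) was lower in M176 than in WT Tregs (limma adjusted p = 0.00492), a call lost with the snoRNA covariate (0.188). Cd80, a ligand of CD28 and CTLA-4, was lower in M176 than in WT Tregs by a log2 change of -1.70 (SE 0.17, limma adjusted p = 3.79e-06). Cd86, which binds the same receptors, was higher in M354 than in WT Tregs by 0.66 (limma adjusted p = 0.0144), a call lost without either M354 array (0.107 and 0.0731) or the first WT array (0.151). Tnfrsf9 (4-1BB) fell in transduced cells by 1.14 on the log2 scale with M354 (limma adjusted p = 0.000397) and by 0.98 with M176 (limma adjusted p = 0.00186). Tnfrsf4 (OX40) was lower with M354 in transduced cells by -0.69 (limma adjusted p = 0.0141) and Tnfrsf18 (GITR) by -0.61 (limma adjusted p = 0.0181). Both of these were lost without either M354-transduced array or the second WT-transduced array (0.0776 to 0.137 for Tnfrsf4 and 0.0776 to 0.179 for Tnfrsf18), and the fall of Tnfrsf9 with M176 without the first M176-transduced array (0.0601).

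Signalling genes downstream of these receptors were tested for 21 of 28. In Tregs 0 were called with M354, 2 rose and 3 fell with M176, and 4 were higher and 5 lower in M354 than in M176; in transduced cells 0 were called. With the snoRNA covariate 0 rose and 0 fell with M176 in Tregs, and 0 were higher and 1 lower in M354 than in M176; under quantile normalization 7 were higher. Cblb, a ubiquitin ligase that limits T cell activation, was lower in M176 than in WT Tregs by a log2 change of -0.84 (SE 0.13, limma adjusted p = 0.000209), a call lost with the snoRNA covariate (0.119). Cbl, a related ligase, was lower there by -0.68 (limma adjusted p = 0.00235; 0.320 with the covariate and 0.0708 without the first M176 array). Ptpn2, a phosphatase that restrains cytokine and T cell receptor signals, went the other way: it was higher in M176 than in WT Tregs by 0.61 (limma adjusted p = 0.0156) and lower in M354 than in M176 Tregs by -0.79 (limma adjusted p = 0.00247). With the mean over its probe sets neither value of Ptpn2 passed (0.854 and 0.109), so its probe sets disagree; the first was also lost with the covariate (0.0623) and without the first M176 (0.139) or WT Treg array (0.166). Sh2d1a (SAP), an adaptor of SLAM receptors, was likewise higher in M176 than in WT Tregs by 0.59 (limma adjusted p = 0.00975) and lower in M354 than in M176 Tregs by -0.60 (limma adjusted p = 0.00695). Both values of Sh2d1a were lost with the covariate (0.609 and 0.574) and without the first M176 array (0.0845 and 0.0609), the first also without the first WT Treg array (0.0938) and the second without the first M354 array (0.104). Ptpn11 (SHP-2), a phosphatase recruited by several inhibitory receptors, was higher in M354 than in M176 Tregs by 0.54 (limma adjusted p = 0.00978), a call lost with the snoRNA covariate (0.564) and without the second M354 (0.0775) or first M176 Treg array (0.132).

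Transcription factors linked to inhibitory receptor expression were tested for 18 of 23 and were the list with the most calls between the mutants. In M354 Tregs 1 rose and 0 fell against WT, in M176 Tregs 2 rose and 9 fell, and 11 were higher and 2 lower in M354 than in M176 Tregs. The median log2 change of the 18 was 0.52 in the latter comparison, beside -0.02 over all genes. In transduced cells 2 fell with M354 and 1 with M176. In Tregs, with the snoRNA covariate 1 fell and 3 were higher, and without the second WT Treg array 4 fell and 11 were higher. Maf, a factor that promotes IL-10 and inhibitory receptors, read 1342 and 1332 in WT, 1723 and 1791 in M354, and 645 and 618 in M176 Tregs. It was lower in M176 than in WT Tregs by a log2 change of -1.08 (SE 0.12, limma adjusted p = 1.58e-05). In transduced cells Maf fell with M354 by 0.75 on the log2 scale (limma adjusted p = 0.00364; 0.0800 without the first M354-transduced array). Id2 was higher in M354 than in WT Tregs by 1.34 (limma adjusted p = 7.23e-05). It was also higher in M176 than in WT Tregs (limma adjusted p = 0.0163), a call lost with the snoRNA covariate (0.384). Id3, its relative that keeps T cells less differentiated, was lower in M354 than in M176 Tregs by -1.65 (limma adjusted p = 2.03e-06). Id3 was higher in M176 than in WT Tregs (limma adjusted p = 1.24e-05) and was not called in M354 against WT Tregs. Nr4a2, a nuclear receptor induced by T cell receptor signals, was higher in M354 than in M176 Tregs by 0.92 (limma adjusted p = 0.000295; 0.0591 with the snoRNA covariate). Nfil3 fell in transduced cells by 0.86 with M354 (limma adjusted p = 0.0028) and by 0.83 with M176 (limma adjusted p = 0.00493). The latter call was lost without either M176-transduced array. In Tregs Nfil3 was lower in M176 than in WT (limma adjusted p = 0.0131), a call lost with the snoRNA covariate (0.212). It was higher in M354 than in M176 Tregs (limma adjusted p = 0.000193).

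**Figure D4:**
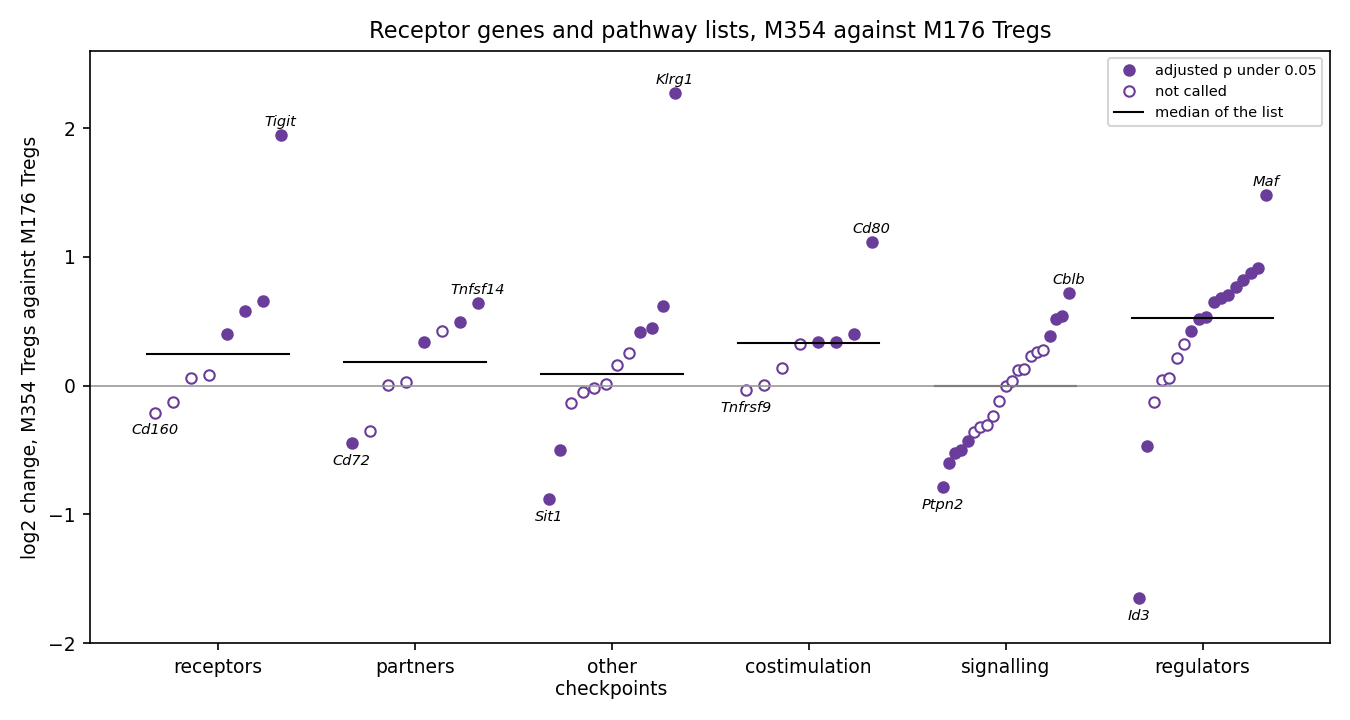
Log2 change in M354 against M176 Tregs for the 8 receptor genes and 5 lists of pathway genes, 1 point per tested gene sorted within its list; filled points are called by limma at an adjusted p under 0.05 and the black line is the median of the list. Tigit (1.95) lies above all other receptor genes, Klrg1 (2.27) is the highest point, Id3 (-1.65) the lowest, and the regulators have a median of 0.52.

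The genes whose log2 values followed Tigit most closely over the 12 arrays were Axl (Pearson r = 0.948), Maf (0.943), Plagl2 (0.942), Gdpd5 (0.935) and Csf1 (0.934), out of 8918 tested. These correlations are descriptions over arrays that fall into 6 groups and share 2 systems. All 5 were lowest in M176 Tregs, which follows largely from choosing them by their likeness to Tigit on these same arrays. Axl, a receptor tyrosine kinase, read 223 and 203 in M176 Tregs beside 588 and 521 in WT Tregs. The nearest other receptor gene of the set over the 12 arrays was Lag3, with r = 0.436 at rank 1667, and Cd96 had r = -0.04 at rank 4523. Over the 6 Treg arrays alone the closest genes were Map3k12 and Gramd1b (r = 0.999 each), Ccr8 (0.996), Tk1 (0.996) and the clone 2010016I18Rik (0.995). Lag3 had 0.956 there, at rank 180, and Cd200 0.762, at rank 1688, so many genes followed Tigit more closely. A high r over 6 arrays in 3 groups need not mean a large change. Map3k12 had means of 178 in M176, 203 in WT and 212 in M354 Tregs and was not called between alleles. Ccr8, a chemokine receptor of activated Tregs, read 624 and 543 in WT, 736 and 848 in M354, and 316 and 337 in M176 Tregs.

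**Figure D5:**
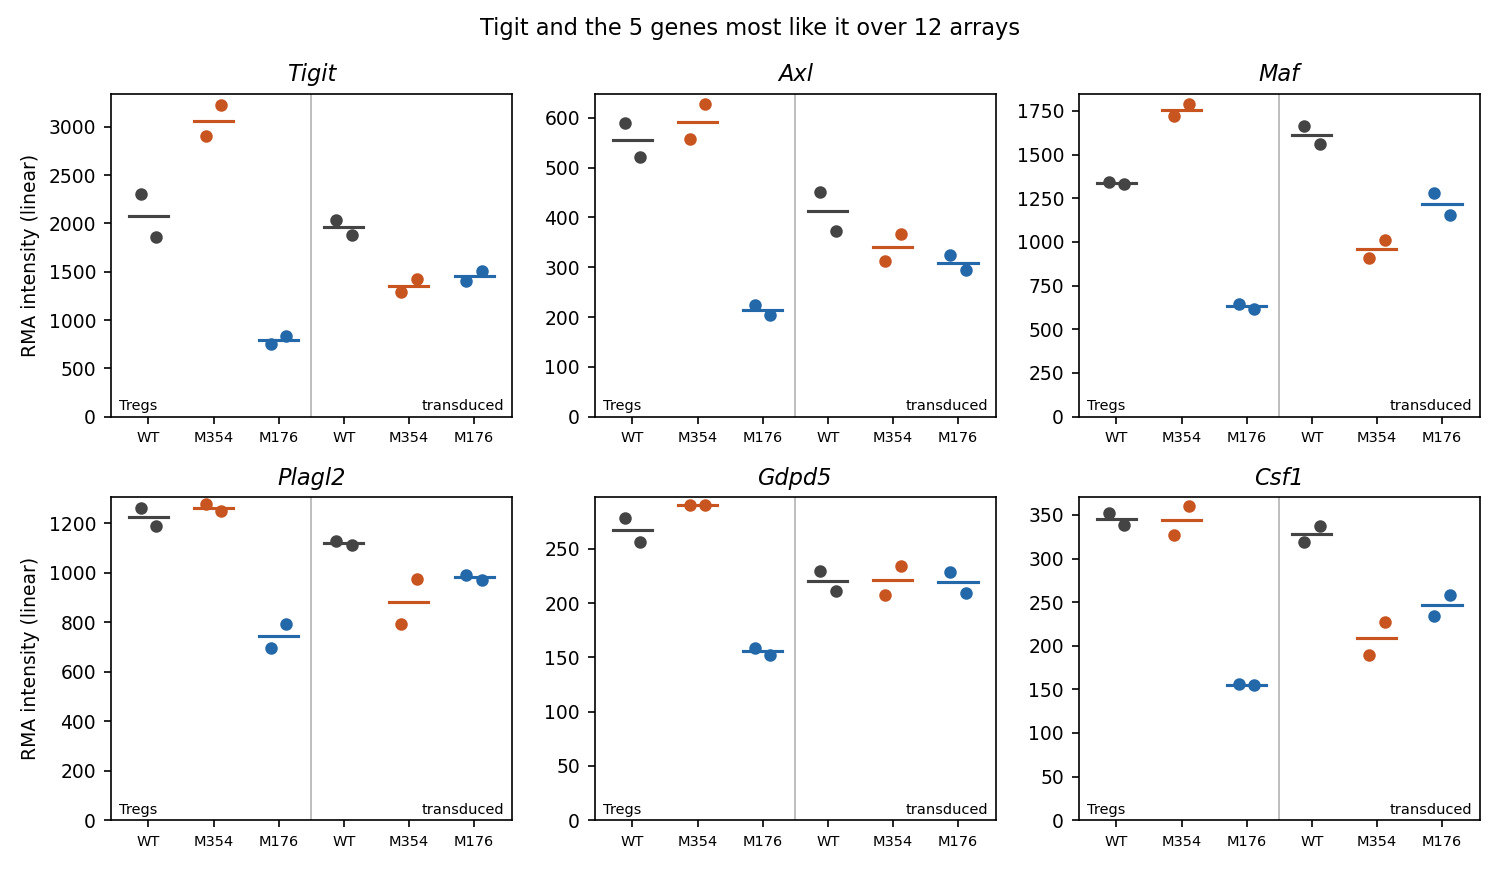
Intensity (linear, after RMA) of Tigit and of the 5 genes with the highest Pearson r to it over the 12 arrays, with points for arrays and lines for group means; each panel has its own axis from 0. In all 6 panels M176 Tregs are the lowest group, which for the 5 genes follows largely from choosing them by r to Tigit. M354 Tregs exceed WT Tregs on both arrays for Tigit, Maf and Gdpd5.

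The genes next to Tigit on chromosome 16 were counted in the same way. Between Tigit and Cd96 lie Btla, Cd200 and 15 other tested genes. Of these 15, 0 rose and 1 fell in M354 against WT Tregs, 0 rose and 2 fell in M176 against WT Tregs, and 1 was higher and 2 lower in M354 than in M176 Tregs. Over all genes 1.81%, 24.7% and 30.8% were called in these comparisons, and with 15 genes nothing is read from the difference. Sidt1, a gene for a membrane protein related to RNA transport, was lower than WT in both mutants, by a log2 change of -0.96 in M354 (limma adjusted p = 0.000248) and -0.64 in M176 Tregs (limma adjusted p = 0.00139). Cd200r1 was the one lower in M176 and higher in M354 than in M176, as Tigit was. In transduced cells 0 of the 15 were called between alleles.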

How the data were processed

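RNA prepared with Trizol was amplified with the Ambion WT Expression Kit and hybridised to 12 arrays, per the labels' protocols. Per the submitters' processing notes, the authors used Affymetrix Power Tools and RMA, and the deposited values are linear intensities, 1 per probe set and array. For genome build and probe library version: not given in the sources used here. The table held 20716 probe sets, of which those with 1 gene symbol gave 16426 genes; the brightest probe set stood for a gene. Array medians lay between 101.5 and 117.4, and replicate arrays correlated at r = 0.984 to 0.992. The number of arrays, 2 a group, limits the precision.

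The log2 of each deposited intensity went into a limma 3.58.1 model (R 4.3.3, statmod 1.5.0), all 12 arrays, 1 mean per group, 6 residual degrees of freedom. The variance of each gene was drawn toward that of the other tested genes, with 10.9 prior degrees of freedom, for p-values and intervals. Genes above the median (percentile 50) of their array on at least 2 arrays were tested, and p-values were adjusted over all 8918 of them within each of 9 comparisons. The script was tested on simulated data. Alternatives changed the normalization, filter, offset, probe set rule, prior, arrays, block and covariate. The receptor genes and lists were chosen with earlier results of these data known. Besides the 8 genes, the text names up to 5 genes per pathway list called between alleles within a system, taken by the largest absolute log2 change, and the 5 genes most like Tigit over 12 or over 6 arrays. Pvr and Sidt1 were named after their values were seen. Gene positions, from RefSeq's gene table, are printed by chromosome and order only, since the build of the array files is not given. They were also used, taken as the promoters' build, to place the Tigit, Btla and Cd96 windows. Base coordinates are printed for promoter windows alone, on GRCm38.p6.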

Additional observations from a re-analysis of the deposited data

Results flagged for a closer look

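Of the 8 receptor genes, 2 were affected differently by a Foxp3 allele in Tregs and in transduced cells, by the test of the difference itself. Over all genes, 1.08% had a called difference in the M354 effect and 5.49% in the M176 effect. For Tigit the M354 effect was 1.10 higher on the log2 scale in Tregs (limma adjusted p = 0.00681). Its levels went up with M354 in both Treg arrays and lay below WT in both transduced arrays. The M176 effect on Tigit differed by -0.95 (limma adjusted p = 0.00852), with both mutant arrays below both WT arrays in each system. With the snoRNA covariate this difference did not pass (limma adjusted p = 0.0807). For Lag3 the M354 effect was 0.84 higher in Tregs (limma adjusted p = 0.0452), with both M354 arrays above WT in Tregs and below WT in transduced cells. The Lag3 difference was lost under several alternatives, among them the replicate block (limma adjusted p = 0.0711) and the snoRNA covariate (0.0791).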

How the results depend on the processing

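Of 1542 values of the receptor genes under 22 alternatives, 1469 kept their side of the threshold and were counted as the same. These kept their direction or, where uncalled, moved by less than 1 SE, with or without a change of sign. A call was lost for 48 and gained for 11. Another 14 uncalled values changed sign and moved by 1 SE or more, and 0 values with a call changed sign. In M354 against WT Tregs the number called was 2 under quantile normalization, cyclic loess, an offset of 50 and a trended, robust prior, and 0 with no filter or only the Treg arrays; leaving out 1 array gave 0 to 1. In M176 against WT Tregs quantile normalization gave 2. Between the Treg mutants the snoRNA covariate gave 1, and leaving out 1 array gave 2 to 4. With M354 in transduced cells quantile normalization, cyclic loess, the offset and the robust prior gave 1. For the M354 effect between systems, the filter at percentile 75 (which leaves Lag3 untested), the offset and the snoRNA covariate gave 1, and leaving out 1 array gave 1 to 2. For the M176 effect the snoRNA covariate gave 0, and leaving out 1 array gave 0 to 1.

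Replicate numbers were used as a block in 1 alternative. Deviations of same-numbered arrays correlated between -0.55 and 0.25 over 15 group pairs, 3 of them over 0.1. The labels do not say whether same-numbered arrays were processed together, and these correlations cannot exclude a batch shared by some groups. With the replicate block the number of receptor genes called was 0 in M354 against WT Tregs and 1 for the M354 effect, and the calls of all genes in M354 against WT Tregs went from 161 to 134.

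Normalization moved the balance of calls: 1129 genes were higher and 1618 lower in M354 than in M176 Tregs, 1584 and 1442 under quantile normalization, and 1459 and 1420 under cyclic loess. Values of Cd160, close to the array median, are limited by its signal over background.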
